A study of Arabidopsis thaliana with 27 samples.

Results

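SPX1, SPX2, SPX3, SPX4, PHR1, PHL1, PHO1 and PHO1;H1 are 8 genes of the phosphate signaling pathway, chosen by name and gene identifier for this account, among 33602 genes in the expression table. The samples were shoots of wild-type *Arabidopsis thaliana* (Col-0) grown on complete medium for 7 days and then moved to complete medium (+Fe+P), medium without iron (−Fe+P) or medium without iron and with phosphate lowered to a small part of the complete level (−Fe−P). Shoots were taken 39, 52 and 76 h after transfer, with 3 biological replicates in each of 9 groups and 27 samples in all. All groups share the genotype and the week on +Fe+P. The −Fe+P against +Fe+P comparison differs in iron, −Fe−P against −Fe+P differs in the phosphate level in plants without iron, and −Fe−P against +Fe+P differs in both. A medium with iron and low phosphate was not analysed here, so the response to low phosphate is measured only in plants moved to medium without iron.

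In plants, PHR1 and its close relative PHL1 are MYB-type transcription factors that switch on phosphate starvation genes by binding a palindromic DNA motif named P1BS. The small SPX proteins bind inositol pyrophosphates, which are abundant when phosphate is plentiful, and in that state they hold PHR1 away from its target promoters. SPX1 and SPX3 are also targets of PHR1, which closes a feedback loop. PHO1 is an SPX-domain phosphate exporter that loads phosphate into the xylem, best known from roots, and PHO1;H1 is its nearest functional relative.

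The motif was searched as GNATATNC, which reads the same on both strands, in the window from 250 bases before to 50 after each annotated gene start in the RefSeq genome TAIR10.1. SPX3 (AT2G45130) held 2 sites, SPX1 (AT5G20150) held 1 and the other 6 genes held 0. Across all 27443 protein-coding genes, 6.25% held a site in this window. The 250 bases before the SPX3 start are printed because this gene held the most sites of the 8 and had the largest differences at 52 and 76 h. They lie at chr2:18606160-18606409 on the + strand, with the sites in capitals, the first bases of the sites lying 213 and 90 bases before the start. For SPX1 the printed 30 bases lie at chr5:6802293-6802322 on the + strand, and the site begins at base 23 of the annotated gene, counting its first base as 1.
SPX3: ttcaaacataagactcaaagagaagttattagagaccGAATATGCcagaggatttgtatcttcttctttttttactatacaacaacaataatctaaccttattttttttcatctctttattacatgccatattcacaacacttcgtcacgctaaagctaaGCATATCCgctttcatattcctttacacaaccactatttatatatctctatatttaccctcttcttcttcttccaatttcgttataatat
SPX1: cagagaaaaaaGGATATTCtaattagaaac
With the 250 bases before the start alone, SPX3 was the only gene of the 8 with a site, against 5.46% of all protein-coding genes. With 1000 bases before the start, a window chosen after the values were seen, SPX4 and PHL1 also held a site, so that 4 of the 8 did, against 20.9%. A match is a string in the genome, not a measured binding site.

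Values are TPM, transcript abundances that scale each gene's reads by its length and each sample to the same total. Whole reads could be recovered from the steps between low TPM values and gave 25.6 to 56.5 megareads per sample. The 18910 genes averaging 1 TPM or more over the 27 samples, all 8 members included, were fitted together on the log2(TPM + 0.5) scale with limma. A gene was called where its Benjamini-Hochberg adjusted p was under 0.05 and its change was at least 2-fold. Differences are on that log2 scale, which understates the change of genes with low TPM. The median over all genes was itself shifted against +Fe+P, by 0.16 and 0.115 for −Fe+P and by 0.115 and 0.10 for −Fe−P at 52 and 76 h, so that small differences are read against these shifts. The median-of-ratios scaling, an alternative, removes them.

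The samples had the make-up of green shoots. A list of 5 leaf marker genes summed to between 28090 and 41860 TPM, and a list of 9 root marker genes to between 1.95 and 13.9 TPM. These sums moved with the medium. At 76 h the root markers of the −Fe−P samples summed to 7.81 to 13.9 TPM, those of −Fe+P to 4.11 to 5.61 TPM and those of the complete medium to 5.28 to 11.85 TPM, so that only the first pair did not overlap. The leaf markers at the same time summed to 40490 to 41860 TPM on complete medium, 28090 to 31130 TPM with iron removed and 34830 to 37080 TPM with low phosphate as well, with no overlap. A single library, −Fe−P 39 h replicate 1, stood apart. In it 671 genes differed at least 2-fold from the mean of the other samples of its group, against 39 to 229 genes in the other 26 samples. The 5 xylem marker genes, which act in wall formation and protein breakdown in developing vessels, summed to 15.5 TPM in it and to 36.7 to 94.5 TPM in the others. The 7 seed storage genes summed to 59.2 TPM in it and to 0.0288 to 7.02 TPM in the others. Among those others the seed storage sum also differed by medium, with at most 0.748 TPM in any +Fe+P sample and 1.45 to 7.02 TPM over the −Fe+P samples. The part these markers have in the values below was not tested, and results at 39 h that rest on this library are given with and without it. All 27 samples share an estimate of the spread of each gene, so this library also enters the standard errors at 52 and 76 h. The values at those times are not each given without it. In the 52 h −Fe−P group, replicate 1 was the lowest of the 3 samples for each of the 8 genes.

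**Figure D1:**
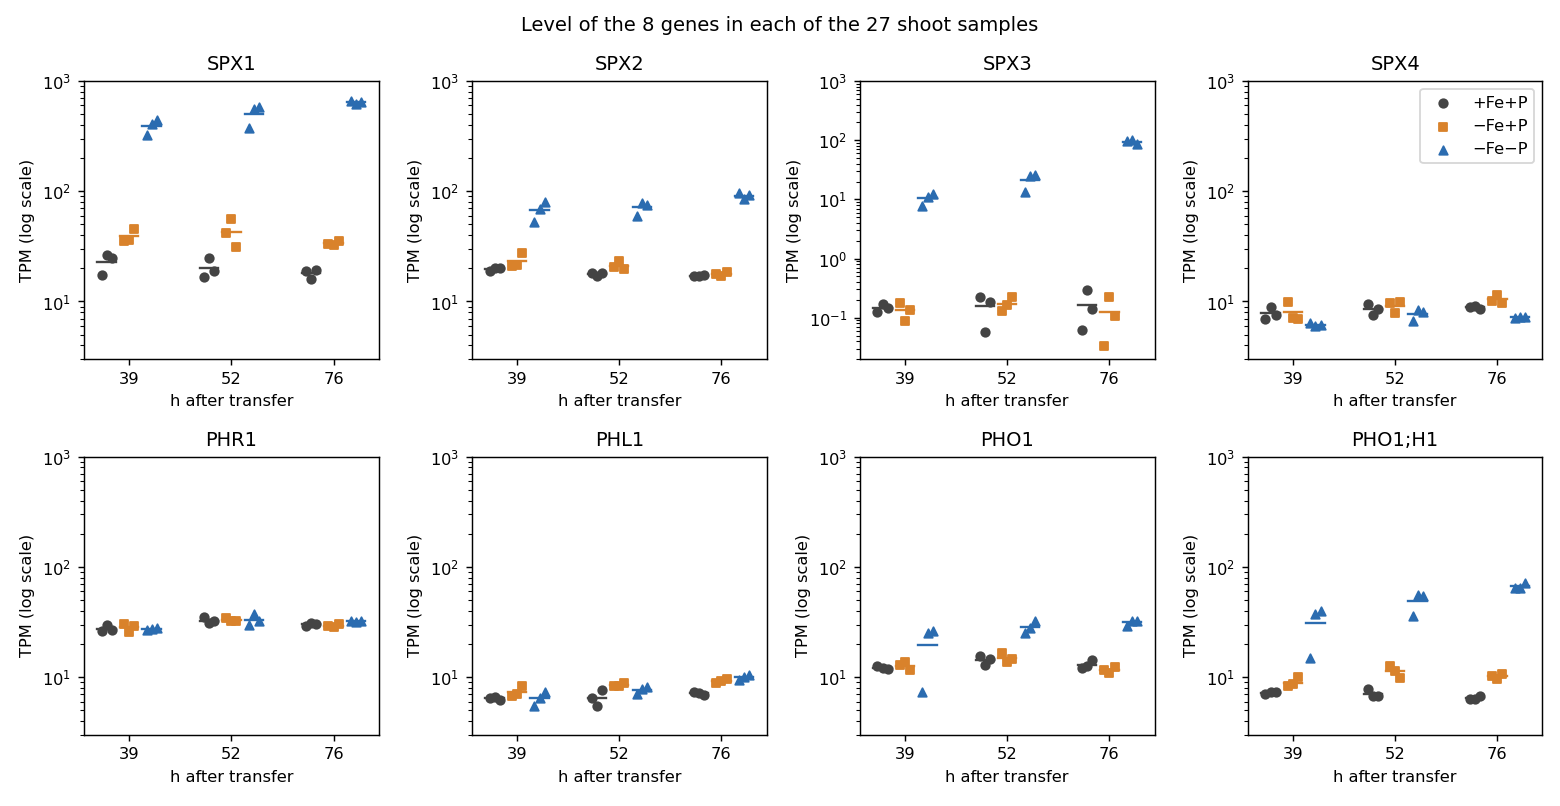
TPM on a log axis (y) against hours after transfer (x) for each gene, with 1 point per sample, circles for +Fe+P, squares for −Fe+P, triangles for −Fe−P and a line at the mean of 3 samples; the SPX3 panel has a lower axis. SPX1, SPX2, SPX3 and PHO1;H1 lie higher in every −Fe−P sample than in any other sample, whereas PHR1 stays between 25.8 and 37.6 TPM throughout.

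The comparison of −Fe−P with −Fe+P asks which of these genes respond to low phosphate when iron is removed at the same transfer. SPX1, SPX2, SPX3 and PHO1;H1 were higher in −Fe−P at all 3 times, PHO1 passed the adjusted p at 52 h and also the 2-fold minimum at 76 h, SPX4 was lower at 76 h by less than 2-fold, and PHR1 did not pass the test at any time. The numbers called higher were 4, 4 and 5 of the 8 genes in order of time, against 0.746%, 1.21% and 4% of all tested genes, and 0 were called lower, against 0.074%, 0.994% and 4.87%.

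SPX1, an inhibitor of PHR1, held 35.1, 36.2 and 45.6 TPM in −Fe+P at 39 h compared with 325, 404 and 439 TPM in −Fe−P. At 52 h it held 41.8, 55.5 and 31.2 TPM in −Fe+P compared with 377, 552 and 585 TPM in −Fe−P. At 76 h it held 33.1, 32.6 and 35.6 TPM in −Fe+P compared with 660, 617 and 651 TPM in −Fe−P. The lowest −Fe−P sample was therefore above every −Fe+P sample by a wide margin at each time, and SPX1 was the most abundant of the 8 transcripts in every −Fe−P sample. The log2 differences were 3.30, 3.56 and 4.23 (standard error 0.19, limma adjusted p = 3.93e-11, 4.2e-12 and 7.5e-14).

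SPX2, which shares the inhibitory role of SPX1, had smaller differences, a contrast between genes that was not tested. It held 21.0, 21.5 and 27.5 TPM in −Fe+P at 39 h against 52.1, 68.9 and 79.8 TPM in −Fe−P, and 17.1, 17.7 and 18.6 TPM in −Fe+P at 76 h, in rising order, against 96.9, 85.9 and 91.6 TPM in −Fe−P. The 2 groups did not overlap at any time. Its log2 differences were 1.49, 1.72 and 2.33 at 39, 52 and 76 h (standard error 0.12, limma adjusted p = 1.14e-08, 4.94e-10 and 8.12e-13).

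SPX3, a gene widely used as a marker of phosphate starvation, was close to the detection limit in both media with full phosphate. Its level was 0.0330 to 0.300 TPM in the 18 samples of +Fe+P and −Fe+P, which came from 1 to 9 recovered reads per library. In −Fe−P it held 7.87, 10.8 and 12.5 TPM at 39 h, 13.3, 24.5 and 26.1 TPM at 52 h, and 95.5, 99.4 and 84.9 TPM at 76 h. No −Fe−P sample overlapped any other sample, and the 3 −Fe−P times did not overlap each other. By summed reads per depth, SPX3 in −Fe−P was at 79.9 times its −Fe+P level at 39 h (95% counting interval 45.5 to 155), 119 times at 52 h (72.9 to 208) and 762 times at 76 h (436 to 1474). The intervals cover counting error only and leave out the spread between samples. On the fitted scale the differences were 4.08, 4.96 and 7.24 (standard error 0.20), smaller than the read ratios because the value 0.5 was added. SPX3 averaged 0.150 TPM over the 18 samples with full phosphate and met the minimum mean of 1 TPM only through the −Fe−P samples. It therefore had to differ between the media, its place in the counts above and below is a description, and no p is given for it. The other 7 genes met the minimum without −Fe−P.

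SPX4, an SPX protein that also holds back PHR1 and whose transcript is not a starvation marker, had the opposite sign. At 76 h it held 10.2, 11.5 and 9.75 TPM in −Fe+P compared with 7.12, 7.26 and 7.30 TPM in −Fe−P. The groups did not overlap, and all 3 −Fe−P samples were lower. The log2 difference was −0.50 (standard error 0.12, limma adjusted p = 0.00111), under 2-fold. It was −0.33 and −0.23 at 39 and 52 h, where it did not pass (adjusted p = 0.118 and 0.158).

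PHR1 held 28.5 ± 2.41, 33.2 ± 1.29 and 29.2 ± 0.861 TPM (SD, n = 3) at the 3 times in −Fe+P, and 27.3 ± 0.584, 33.2 ± 4.10 and 32.1 ± 0.543 TPM in −Fe−P. At 39 and 52 h the groups overlapped, and at 76 h the −Fe−P samples, 31.5 to 32.6 TPM, lay just above the −Fe+P samples, 28.5 to 30.2 TPM. Its log2 differences were −0.06, −0.01 and 0.13 (standard error 0.08, limma adjusted p = 0.803, 0.954 and 0.152). The 95% intervals ran from −0.22 to 0.10 at 39 h and from −0.17 to 0.15 at 52 h, so that changes as large as those of SPX1, SPX2 and SPX3 lie outside them, and from −0.03 to 0.29 at 76 h. PHL1 had differences of −0.19, −0.14 and 0.11, which did not pass either (limma adjusted p = 0.365, 0.335 and 0.379). PHR1 overlaps the gene AT4G28600 on the opposite strand by 59 bases, and because the strand of the libraries is not given in the sources used here, reads from that stretch cannot be told apart.

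PHO1, the exporter, held 11.7, 12.8 and 13.6 TPM in −Fe+P at 39 h, in rising order, and 7.41, 25.3 and 26.1 TPM in −Fe−P. The low value was that of −Fe−P 39 h replicate 1, the library with low xylem markers, and the groups overlapped through it alone. In bulk shoots, fewer cells of a type and less RNA per cell cannot be told apart. With all samples the log2 difference at 39 h was 0.42 (standard error 0.26, limma adjusted p = 0.468), and without that library it was 0.99 (standard error 0.10, adjusted p = 4.84e-07). Its PHO1 value was 0.288 times the mean of the other 2 samples of its group, where the same ratio ran from 0.843 to 1.60 in the other 26 samples.

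At 52 h PHO1 held 13.6, 14.6 and 16.5 TPM in −Fe+P compared with 25.3, 27.9 and 32.1 TPM in −Fe−P, each in rising order. At 76 h it held 10.9, 11.6 and 12.4 TPM in −Fe+P against 29.3, 32.2 and 32.6 TPM in −Fe−P. All −Fe−P samples at these times were above all −Fe+P samples. The root markers were also higher at 76 h in −Fe−P, as given above, and their part in the PHO1 values was not tested. The differences were 0.91 and 1.40 (limma adjusted p = 0.0119 and 1.1e-04), and the first no longer passed once replicate 3 of −Fe−P was left out (0.82, adjusted p = 0.0586). Over all samples left out in turn its adjusted p ran from 1.2e-07 to 0.0586, and over the 8 alternatives that kept all samples from 0.00297 to 0.0249.

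PHO1;H1 (AT1G68740) had larger differences than PHO1 at each time, a contrast between genes that was not tested. It held 8.27, 8.58 and 9.94 TPM in −Fe+P at 39 h compared with 15.0, 37.5 and 39.7 TPM in −Fe−P, 9.83, 11.4 and 12.6 TPM against 36.0, 54.3 and 55.6 TPM at 52 h, and 9.60, 10.2 and 10.7 TPM against 63.8, 65.0 and 71.6 TPM at 76 h, each in rising order. The groups did not overlap at any time, although replicate 1 was again far below the other −Fe−P samples at 39 h, at 0.390 times their mean. Its log2 differences were 1.61, 2.04 and 2.66 (standard error 0.22, limma adjusted p = 4.05e-05, 3.19e-07 and 1.2e-09). Without −Fe−P 39 h replicate 1 the first was 2.05 (standard error 0.13, adjusted p = 3.17e-10), and in a fit of only the 6 samples of that comparison it did not pass (adjusted p = 0.0885, the highest of 8 alternatives).

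**Figure D2:**
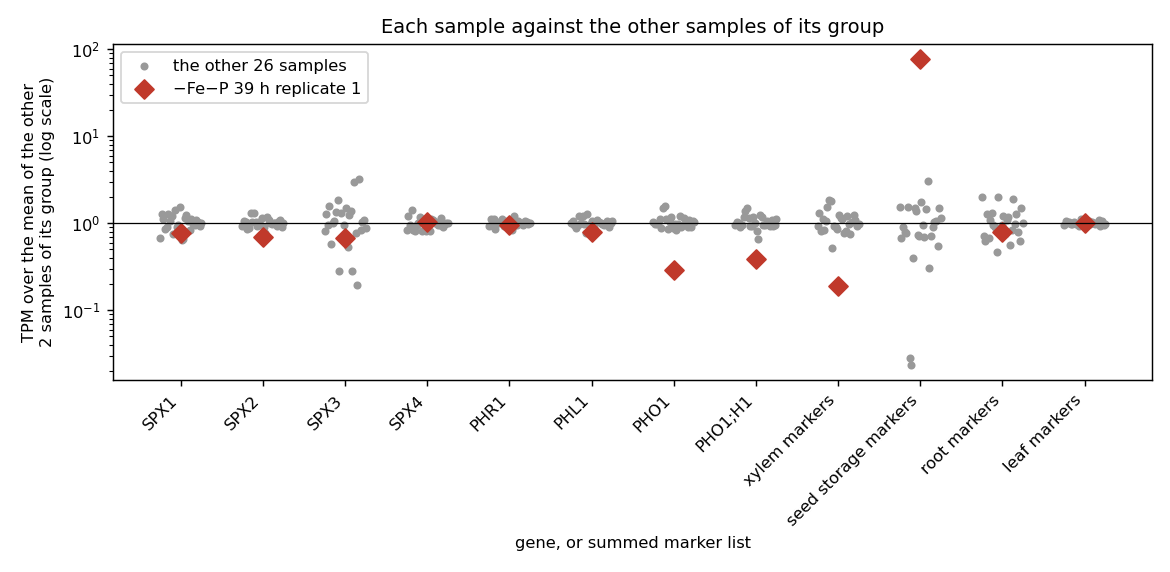
For each gene and each summed marker list (x), TPM in a sample divided by the mean of the other 2 samples of its group (y, log axis); diamonds are −Fe−P 39 h replicate 1 and grey points are the other 26 samples. The diamond lies below all grey points for PHO1 (0.288), PHO1;H1 (0.390), SPX2 (0.701) and the xylem markers (0.188), above all of them for the seed storage markers (76.6), and among them for the other genes.

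In the same library SPX1, SPX2 and SPX3 were at 0.772, 0.701 and 0.676 times the mean of the other 2 samples, of which only the SPX2 ratio lay outside those of the other 26 samples. Leaving it out moved the −Fe−P against −Fe+P differences at 39 h from 3.30 to 3.43 for SPX1, from 1.49 to 1.66 for SPX2 and from 4.08 to 4.26 for SPX3, and SPX1 and SPX2 still passed (limma adjusted p = 1.59e-10 and 5.34e-10). The values of PHO1 and PHO1;H1 moved most, as given above. The part of the xylem and seed markers in these values was not tested.

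The comparison of −Fe−P with +Fe+P, which differ in iron and in the phosphate level, shares the −Fe−P samples with the comparison above. At 39, 52 and 76 h, 4, 4 and 5 of the 8 genes were called higher (5 at 39 h without −Fe−P 39 h replicate 1, PHO1 being the addition), against 1.45%, 4.45% and 6.34% of all tested genes, and 0 were called lower, against 0.55%, 0.793% and 2.6%. SPX1 held 17.4, 26.7 and 24.6 TPM in +Fe+P at 39 h and 19.0, 16.1 and 19.4 TPM at 76 h. Set against the −Fe−P values above, its differences were 4.07, 4.60 and 5.11 (limma adjusted p = 6.17e-13, 4.59e-14 and 2.91e-15), or 17.02, 24.96 and 35.4 times by the means. SPX3 was 71.4 times higher by reads per depth at 39 h (95% counting interval 41.5 to 134.5), 144 times at 52 h (82.4 to 280.0) and 565 times at 76 h (342 to 1010). SPX2 had differences of 1.72, 1.96 and 2.38, and PHO1;H1 of 1.89, 2.67 and 3.27, with limma adjusted p of at most 1.58e-06 among these 6 values. Leaving out −Fe−P 39 h replicate 1 moved the 39 h value of PHO1;H1 to 2.34, of SPX1 to 4.195, of SPX2 to 1.89 and of SPX3 to 4.23.

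PHO1 differed from +Fe+P by 0.47 at 39 h (limma adjusted p = 0.235), by 0.96 at 52 h (0.00529) and by 1.24 at 76 h (3.63e-04), and by 1.05 at 39 h without −Fe−P 39 h replicate 1 (adjusted p = 9.81e-08). PHL1 was higher in −Fe−P at 76 h, with 9.40, 10.11 and 10.5 TPM against 7.28, 7.11 and 6.96 TPM in +Fe+P. The groups did not overlap, and the log2 difference was 0.46 (standard error 0.10, limma adjusted p = 4.9e-04). Over 8 alternatives that kept all samples it ran from 0.35 to 0.48 (adjusted p from 0.000426 to 0.00112). PHL1 at 52 h did not pass (0.22, adjusted p = 0.0822), but did so with replicate 3 of +Fe+P or replicate 1 of −Fe−P left out (0.33 and 0.28, adjusted p = 0.0147 and 0.0437). SPX4 was lower by values that did not pass at any time, −0.31, −0.14 and −0.27 (limma adjusted p = 0.0717, 0.378 and 0.0562), although with the median of ratios the 39 and 76 h values did (−0.36 and −0.38, adjusted p = 0.0251 and 0.00538). Over the 8 alternatives that kept all samples, the adjusted p of SPX4 at 76 h ran from 0.00538 to 0.0836, and over samples left out in turn from 0.0259 to 0.123, under 0.05 without replicate 1 of −Fe+P at 39 h, replicate 2 of +Fe+P or −Fe+P at 52 h, or replicate 1 of −Fe−P at 52 h. At 39 h it passed without replicate 1 of −Fe+P at 39 h (adjusted p = 0.0348). PHR1 differed by −0.01, 0.02 and 0.09 (adjusted p = 0.94, 0.871 and 0.337).

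**Figure D3:**
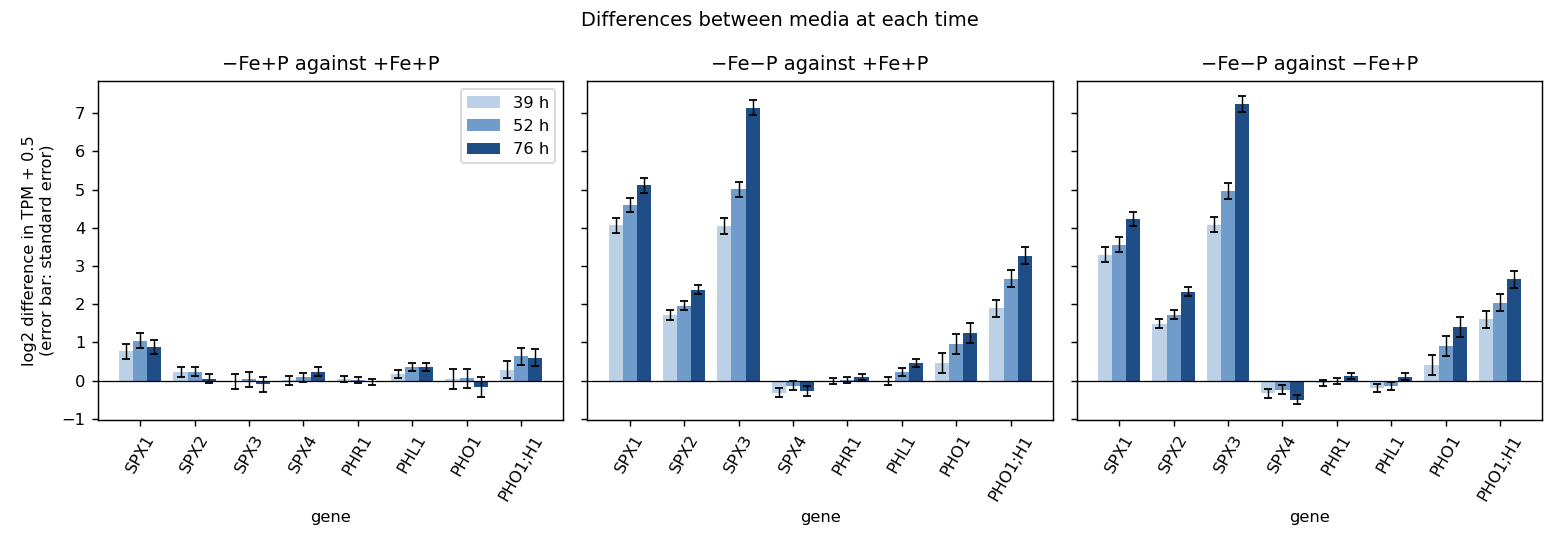
Bars are the log2 difference of TPM + 0.5 (y) for each gene (x) at 39, 52 and 76 h in the 3 comparisons, with error bars of 1 standard error from the fit of all 27 samples. The bars grow with time for SPX3 from 4.05 to 7.15 against +Fe+P and from 4.08 to 7.24 against −Fe+P, and the iron comparison has bars of at most 1.05.

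The comparison of −Fe+P with +Fe+P asks what iron removal alone does to these genes, and the differences were small. In order of time, 0, 1 and 0 of the 8 genes were called higher, against 0.555%, 2.78% and 4.42% of all tested genes, and 0 were called lower, against 0.439%, 0.687% and 1.2%. The called gene was SPX1 at 52 h. By the adjusted p alone, 1, 3 and 3 genes were higher, against 3.43%, 28.5% and 29.5% of all tested genes, so that at 52 and 76 h the share among the 8 was near that of all genes.

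At 52 h SPX1 held 41.8, 55.5 and 31.2 TPM in −Fe+P, against 16.6, 24.998 and 19.1 TPM in the complete medium, and at 76 h 33.1, 32.6 and 35.6 TPM against 19.0, 16.1 and 19.4 TPM. The groups did not overlap at any of the 3 times. The log2 differences were 0.77, 1.05 and 0.88 at 39, 52 and 76 h (standard error 0.19, limma adjusted p = 0.0179, 3.53e-04 and 9.49e-04). The 52 h value was under 2-fold with replicate 1 of +Fe+P left out (0.92), with replicate 2 of −Fe+P left out (0.84) and with the median of ratios (0.87), and it still passed the adjusted p in each. The 39 h value no longer passed with replicate 1 of +Fe+P left out (0.59, adjusted p = 0.137) or replicate 3 of −Fe+P (0.65, adjusted p = 0.109). The mean SPX1 level at 76 h was 18.15 TPM on complete medium, 33.8 TPM on medium without iron and 642.5 TPM where phosphate was low as well.

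PHO1;H1 was higher in −Fe+P at 52 and 76 h by 0.635 and 0.61 (standard error 0.22, limma adjusted p = 0.0328 and 0.0345). Its +Fe+P samples at 76 h, 6.33, 6.35 and 6.80 TPM, all lay below its −Fe+P samples, 9.60, 10.2 and 10.7 TPM. The 76 h value did not pass when any of these 6 samples was left out (adjusted p from 0.0565 to 0.0949). All 27 samples share an estimate of the spread, so leaving out samples of other groups also moved the adjusted p. The deviating library, −Fe−P 39 h replicate 1, is part of that estimate. For PHO1;H1 in −Fe−P against −Fe+P at 39 h the standard error was 0.22 with it and 0.13 without it. Over all samples left out in turn the 76 h value ran from 0.57 to 0.64 (adjusted p from 0.000324 to 0.0949). The 52 h value did not pass without +Fe+P replicate 2 or 3 (0.101 and 0.0817) or −Fe+P replicate 1 or 2 (0.107 and 0.0699). Over all samples left out in turn it ran from 0.55 to 0.73 (adjusted p from 0.000358 to 0.107). With the median of ratios neither passed (0.47 and 0.48, adjusted p = 0.109 and 0.064), the highest of 8 alternatives that reached down to 0.0067 and 0.000202. PHL1 was higher by 0.36 and 0.35 at 52 and 76 h (limma adjusted p = 0.00892 and 0.0078). With the median of ratios these became 0.19 and 0.23 (adjusted p = 0.086 and 0.0252), and the first also did not pass without replicate 2 of +Fe+P (0.25, adjusted p = 0.0867). SPX2, SPX3, SPX4, PHR1 and PHO1 did not pass at any time, with differences from −0.16 to 0.24. At 76 h PHR1 passed with the median of ratios (−0.17, adjusted p = 0.0392), and SPX4 passed in a fit of its 6 samples alone (0.23, adjusted p = 0.0308).

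How far the difference between media had grown from 39 to 76 h was tested as a contrast of the same fit. For −Fe−P against −Fe+P, SPX3 grew by 3.16 and PHO1;H1 by 1.05 (limma adjusted p = 0.0155 for PHO1;H1). These were the 2 of 8 genes called, against 2.01% of all tested genes, with 0 called in the other direction against 2.51%. SPX3 met the minimum mean only through the −Fe−P samples, so its place in these counts is a description and no p is given for it. SPX1 grew by 0.93 and SPX2 by 0.84 (adjusted p = 0.014 and 8.52e-04), under 2-fold. Without −Fe−P 39 h replicate 1 the SPX3 value was 2.98 and that of PHO1;H1 was 0.61, so that SPX3 alone was called. SPX3 alone was also called with replicate 3 of −Fe+P at 39 h left out, where PHO1;H1 grew by 0.974, and with replicate 3 of −Fe−P at 76 h left out, where it grew by 0.999. In a fit of only the 12 samples of this contrast PHO1;H1 kept 1.05 but did not pass (limma adjusted p = 0.0731). With replicate 3 of −Fe−P at 39 h left out, SPX1 and PHO1 were called as well, 4 genes in all. PHO1 grew by 0.98 with all samples (adjusted p = 0.0528) and by 0.40 without −Fe−P 39 h replicate 1 (adjusted p = 0.0316).

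Against +Fe+P, SPX1, SPX3 and PHO1;H1 were called, with growth of 1.04, 3.10 and 1.37 (limma adjusted p = 0.00644 for SPX1 and 0.00233 for PHO1;H1). This is 3 of 8 genes against 3.53% of all tested genes, with 0 in the other direction against 1.7%, and SPX3 is again counted as a description. Leaving out −Fe−P 39 h replicate 1 kept SPX3 alone, with SPX1 at 0.92 and PHO1;H1 at 0.93. PHL1 grew by 0.46 (adjusted p = 0.0167), and by 0.37 without that library (adjusted p = 0.0525). The −Fe+P against +Fe+P difference grew for 0 of 8 genes, against 2.06% of all tested genes, and fell for 0, against 0.259%.

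Within −Fe−P, 7 of the 8 genes were higher at 76 h than at 39 h by the adjusted p alone, against 27.8% of all tested genes, and SPX3 and PHO1;H1 were called, 2 of 8 against 6.34%, with 0 called lower against 4.19%. SPX3 rose from 10.4 ± 2.35 to 93.3 ± 7.51 TPM (mean ± SD, n = 3), a log2 difference of 3.13, and without −Fe−P 39 h replicate 1 it was 2.95. As above, SPX3 is counted as a description and no p is given for it. PHO1;H1 rose by 1.23 (limma adjusted p = 6.63e-05), and by 0.78 without that library. SPX1 and SPX2 rose by 0.73 and 0.47 (adjusted p = 0.00255 and 0.00232), PHL1 by 0.60 (2.38e-05), PHR1 by 0.23 (0.0138) and PHO1 by 0.86, or by 0.28 without that library (adjusted p = 0.00766 and 0.0233). The smaller PHR1 change, from 27.3 to 32.1 TPM, did not pass in a fit of only its 6 samples (adjusted p = 0.0598), nor did that of PHO1 (0.139). In +Fe+P 0 members were called over the same time, against 1.52% of all tested genes higher and 0.391% lower, and in −Fe+P 0, against 4.42% and 0.603%. In −Fe+P, SPX4 and PHL1 differed by 0.39 and 0.31 and SPX2 by −0.37 (limma adjusted p = 0.0135, 0.0205 and 0.021), each under 2-fold and each not passing without some of the 6 samples: SPX4 without replicate 2 or 3 of 39 h or 2 of 76 h (0.0759, 0.0843 and 0.0713), PHL1 without replicate 1 or 2 of 39 h or 2 or 3 of 76 h (0.0937, 0.0706, 0.0508 and 0.066), and SPX2 without replicate 3 of 39 h or 1 or 2 of 76 h (0.151, 0.0539 and 0.0699).

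The order of the 9 groups differed between the genes. For SPX1, SPX2, SPX3, PHO1 and PHO1;H1, the 3 −Fe−P groups were the 3 highest, in the order 76, 52 and 39 h. Neighbouring −Fe−P groups at 52 and 39 h overlapped for SPX1, SPX2, PHO1 and PHO1;H1, for PHO1 those at 76 and 52 h and the next lower group did too, and only SPX3 separated all 3 times. For SPX1 and PHO1;H1 all −Fe+P groups came next, above all +Fe+P groups, with no overlap between the lowest −Fe+P and the highest +Fe+P group. For SPX3 the 6 groups with full phosphate overlapped with their neighbours throughout. SPX4 was highest in −Fe+P at 76 h, at 10.5 ± 0.891 TPM, and lowest in −Fe−P at 39 h, at 6.15 ± 0.164 TPM. For PHR1 the highest and the lowest group means were 33.2 and 27.3 TPM, and all but 1 neighbouring pair of groups overlapped.

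A ratio was taken of the summed TPM of SPX1, SPX2 and SPX3 over that of PHR1 and PHL1. It is built from the levels already described and measures mRNA only. It leaves out SPX4, which also holds back PHR1 and was lower in −Fe−P than in −Fe+P at 76 h. This ratio is therefore not a full balance of inhibitor and activator transcripts. It was 0.847 to 1.37 in the 9 +Fe+P samples and 1.23 to 1.95 in the 9 −Fe+P samples. In −Fe−P it was 11.97, 14.2 and 15.1 at 39 h, 12.3, 14.4 and 16.95 at 52 h, and 20.3, 19.3 and 19.4 at 76 h. At 39 h in −Fe−P, SPX3 made up 2.21 ± 0.157% (SD, n = 3) of the summed SPX1, SPX2 and SPX3 TPM and 10.3 to 12.4% at 76 h, while SPX1 made up 83.5 ± 0.900% at 39 h and 76.9 to 78.7% at 76 h.

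**Figure D4:**
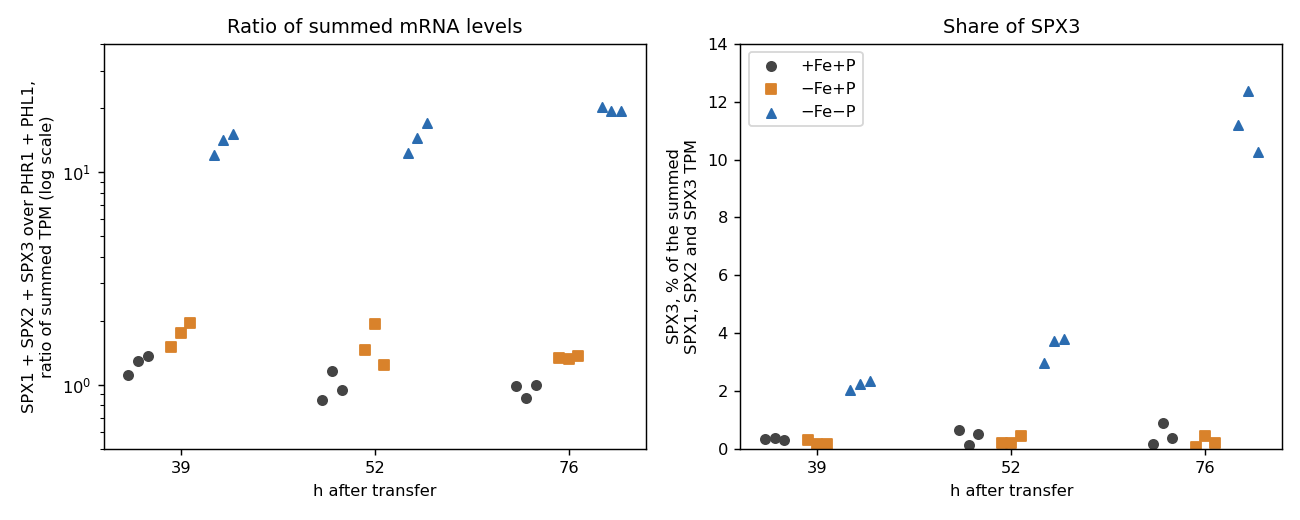
Left, summed SPX1, SPX2 and SPX3 TPM over summed PHR1 and PHL1 TPM (y, log axis), and right, SPX3 as a percent of the summed SPX1, SPX2 and SPX3 TPM (y), both against hours after transfer (x) with 1 point per sample. The ratio in −Fe−P lies between 11.97 and 20.3, above every other sample (0.847 to 1.95), and the SPX3 share in −Fe−P is 2.04 to 2.36% at 39 h and 10.3 to 12.4% at 76 h.

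Other genes of the pathway were read from 3 lists. Of 14 other SPX domain genes, among them PHO1 homologues, SPX-MFS transporters and the ubiquitin ligase gene NLA, 7 were tested. AT2G03240, an EXS family gene of the PHO1 type, was the only one called in any comparison between media. It held 19.05 ± 3.004 TPM with iron removed and 8.665 ± 0.785 TPM (SD, n = 3) on complete medium at 76 h. The log2 difference was 1.085 (limma adjusted p = 1.6e-07), 1 of 7 genes beside 4.42% of all tested genes higher. In the comparisons with −Fe−P, 0 of 7 were called. Of all tested genes, 0.746% to 6.34% were called higher there and 0.074% to 4.87% lower, so that 0 of 7 is near the share of all genes. The median difference of the 7 against −Fe+P at 76 h was −0.50, beside −0.03 over all genes.

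Of 11 other phosphate signaling genes, all tested, 4, 5 and 5 were called higher against −Fe+P in order of time, where 0.746%, 1.21% and 4% of all tested genes were, and 0 lower, with list medians of 0.26, 0.36 and 0.66. Against +Fe+P the counts were 5, 5 and 5, beside 1.45%, 4.45% and 6.34% of all tested genes, and under iron removal alone 0 in each case, beside 0.555%, 2.78% and 4.42%. Their largest differences at 76 h were those of IPS1 and of AT5G03545 (also named AT4), both non-coding RNAs that sequester the microRNA miR399, and of PHF1, which helps phosphate transporters leave the endoplasmic reticulum. IPS1 stood at 0.244 ± 0.173 TPM in −Fe+P at 76 h and at 266 ± 18.8 TPM where phosphate was low as well (SD, n = 3), a log2 difference of 8.50. Like SPX3, IPS1 met the minimum mean only through the −Fe−P samples, and no p is given for it. It is 1 of the 11, and the counts and medians of the list are a description. AT5G03545 and PHF1 differed by 6.21 and 2.25. PHO2, whose ubiquitin-conjugating enzyme removes PHO1 and phosphate transporters, was also called at all 3 times, with 1.34 at 76 h, as was AT5G15070 at 52 and 76 h.

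Of 24 phosphate starvation targets, 20 were tested, and 16, 17 and 19 were called higher against −Fe+P and 0 lower, and 13, 16 and 18 against +Fe+P, beside the same shares of all tested genes. Of the 20, PEPC1 and 2 others met the minimum mean only through the −Fe−P samples, so these counts and the median are a description. Their median difference at 76 h was 3.94, beside −0.03 over all genes. PEPC1, a phosphatase gene, differed by 7.89, MGDC, which makes galactolipids that replace phospholipids, by 6.45, and PS2, a pyrophosphatase gene, by 6.17. Under iron removal alone, 0, 2 and 1 of the 20 were called higher, beside 0.555%, 2.78% and 4.42% of all tested genes, namely PS2 at 52 and 76 h (1.296 and 1.57, limma adjusted p = 3.0e-04 and 1.69e-05) and SRG3 at 52 h. The list medians were 0.03, 0.16 and −0.27 in order of time, beside 0.05, 0.16 and 0.11 over all genes.

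The genes most like each member were taken by Pearson's r of log2(TPM + 0.5) over the 27 samples, among all 18910 tested genes. As a description, with samples sharing groups and media, the nearest genes of SPX1 were SRG3 (r = 0.997), the organic cation transporter gene OCT4 (0.992) and PS2 (0.990). Those of SPX2 were PAP12, a purple acid phosphatase gene (0.996), AT4G35750 and AT4G23000 (0.992 each). Those of SPX3 were IPS1 and AT2G34210 (0.996 each) and PEPC1 (0.995), where Spearman's rho for IPS1 was 0.596. The choice of measure changes these names. Of the 3 genes per member, those shared with the top 3 by Spearman's rho were 2 for SPX1 and PHR1, 1 for SPX2, SPX4 and PHO1, and 0 for SPX3, PHL1 and PHO1;H1. Those shared with the top 3 by the 9 group means were 2 for SPX1 and SPX3, 1 for SPX2 and SPX4, and 0 for PHR1, PHL1, PHO1 and PHO1;H1.

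PHO1;H1 was nearest to the sugar transporter gene STP7 (0.985), AT4G34310 and LCAT3 (0.984 each). PHO1 was nearest to HMA2, a zinc pump of the vasculature (0.950), BAT1 (0.927) and AT1G75280 (0.926). For the 3 genes without a large response to phosphate, the neighbours were TLP2, RPS4 and FH8 for PHL1 (0.937, 0.935 and 0.920), sks5, AT1G33250 and CRK29 for SPX4 (0.864, 0.859 and 0.852), and AT1G31920, AT5G63700 and ckl4 for PHR1 (0.858, 0.856 and 0.848). The values of SPX4 and PHR1 were lower than those of the other genes, while those of PHL1 were close to those of PHO1. Among the 8 themselves, SPX1, SPX2, SPX3 and PHO1;H1 had r of 0.96 to 0.99 with each other, PHO1 had 0.78 to 0.89 with those 4, SPX4 had −0.46 to −0.62 with them, and PHR1 had 0.15 to 0.28.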

How the data were processed

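RNA-seq of poly(A) RNA from 27 shoot samples was deposited as a gene table. The TPM values were computed by the authors, whose notes name HISAT2, TAIR10 and DESeq2, with no versions. How TPM were computed and the library strand are not given in the sources used here. Every sample sums to 1000000. All 24561 genes with values in at least 10 samples were whole multiples of 1 read within 0.02 reads, which gave the depths (median 44.2 megareads) and a median of 35 reads per sample near 1 TPM.

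Groups came from the sample labels. The fit used R 4.3.3 and limma 3.58.1, with 1 mean per group, no block, eBayes with a trend, a pseudocount of 0.5, a minimum mean of 1 TPM and p-values adjusted within each comparison over 18910 genes. It was also run on simulated data, with the outcome not given here. Those data had the same spread in every group and no deviating library, so they cannot show the effect of such a library. The p-values rest on a spread between replicates that was estimated over all 9 groups and moderated by eBayes. They do not rest on the spread of the compared samples alone.

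The members and lists were chosen with earlier results of these data known. The text names all 8 members, at most 3 called genes per list with the largest −Fe−P against −Fe+P difference at 76 h, SPX domain genes called in at least 2 comparisons, and the 3 most similar genes per member. AT2G03240, PHO2, AT5G15070, NLA and SRG3 were named after their values were seen, NLA only as an example. Alternatives are given in the closing section. Same-numbered samples were checked for shared deviations: in 1 of 9 media comparisons, −Fe+P against +Fe+P at 52 h, every pair had r over 0.1 (0.131, 0.272 and 0.285). Gene sequences were taken from RefSeq TAIR10.1, which matched 32835 identifiers.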

Additional observations from a re-analysis of the deposited data

Results flagged for a closer look

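For 9 results the difference between media was not the same at 39 and 76 h, by a test of the change itself (limma, adjusted p under 0.05). No 2-fold minimum was set here and the share of all tested genes passing is not given, so this number is a description. With that minimum, 3 of the 8 genes were called against +Fe+P and 2 against −Fe+P. Of all tested genes 3.53% and 2.01% were called higher. SPX3 met the minimum mean only through the −Fe−P samples, so its values among the 9 are a description. Against +Fe+P, the −Fe−P difference grew on the log2 scale by 1.04 for SPX1, 0.67 for SPX2, 3.10 for SPX3, 0.46 for PHL1 and 1.37 for PHO1;H1. Against −Fe+P, it grew by 0.93 for SPX1, 0.84 for SPX2, 3.16 for SPX3 and 1.05 for PHO1;H1. These comparisons share the −Fe−P samples. Without −Fe−P 39 h replicate 1 the values were 0.92, 0.50, 2.92, 0.37 and 0.93 against +Fe+P, and 0.80, 0.67, 2.98 and 0.61 against −Fe+P. SPX3 aside, all of these passed but that of PHL1 (limma adjusted p = 0.0525). The part of that library's low xylem and high seed storage markers in these values was not tested.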

How the results depend on the processing

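The 120 differences of the 8 genes were recomputed under 4200 alternatives. In 4139 the side of the adjusted p was kept, in 36 a difference no longer passed and in 25 it newly passed. In 0 did the direction turn where the main or the alternative value passed. Where neither passed, a turn of sign was counted as kept. For example, SPX3 in −Fe+P against +Fe+P at 76 h was −0.095 and reached 0.044 with samples left out in turn. Without the 2-fold minimum, genes under 2-fold also count. In −Fe+P against +Fe+P the counts were then 1, 3 and 3 of 8 at 39, 52 and 76 h. By that rule 3.43%, 28.5% and 29.5% of all tested genes were higher. The change from 39 to 76 h took in 5 members for −Fe−P against the complete medium and 4 against the medium lacking iron. The comparison of 76 h with 39 h took in 3 in −Fe+P, and 7 in −Fe−P beside 27.8% of all tested genes higher. For the change and for −Fe+P over time the share of all tested genes by this rule is not given. Those counts are a description. With the median of ratios the 52 h count of the iron comparison was 0, as SPX1 went under 2-fold. A fit of only the 12 samples gave 1 for the change against the medium lacking iron, as PHO1;H1 kept 1.05 but did not pass (limma adjusted p = 0.0731). Leaving out each sample in turn gave counts from 0 to 1 for the iron comparison at 52 h, from 4 to 5 for −Fe−P against complete medium at 39 h and at 52 h (5 without replicate 1 of −Fe−P of that time, and at 52 h also without replicate 1 of +Fe+P), from 1 to 4 for the change in both −Fe−P comparisons and from 1 to 3 for −Fe−P at 76 h against 39 h. With the replicate number as a block, all 15 counts were those of the unblocked fit, and in the paired 52 h comparison SPX1 stayed at 1.05 (adjusted p = 6.28e-05). Over 27 same-numbered pairs r ran from −0.415 to 0.365. Limits are depth for SPX3 at full phosphate, 3 samples per group and the single deviating library.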
